A study of Mus musculus with 20 samples.

Results

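The cytosolic ribosome carries more proteins on its large than on its small subunit, and the genes for these proteins were followed here in microglia of mice with and without an amyloid knock-in. Members were the gene symbols made of Rpl or Rps, a number and at most a short suffix, together with Rplp0, Rplp1, Rplp2 and Rpsa, without pseudogenes or the S6 kinases. The rule found 83 of the 21315 gene symbols listed. Of these, 43 encode proteins of the large subunit, 31 of the small subunit and 3 of the stalk, and 6 are paralogs of another member. They lie on 19 chromosomes, with 14 on chromosome 7.

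RNA was sequenced from brain microglia of C57BL/6 mice aged 9 months in 20 libraries, and reads per gene were compared across 6 conditions. In 6 libraries, 3 from WT and 3 from APP-KI mice, cells gated as CD45mid and CD11b+ were also sorted for C3aR by a Td-tomato reporter placed in the floxed C3ar1 gene (WT C3aR+ and APP-KI C3aR+). The other 14 libraries took the whole gate, from 3 WT, 3 APP-KI, 3 C3aR-KO and 5 APP-KI; C3aR-KO mice, the last called double mutants below. In APP-KI mice the endogenous App gene has the NL-G-F form: its Aβ part is human, and the Swedish, Arctic and Iberian mutations are present. C3aR-KO mice lack C3ar1 in every cell from birth, so neither allele acts in microglia alone. The mice without the reporter were littermates from a cross of a C3aR-KO line, backcrossed to C57BL/6J, with APP-KI, and the reporter mice were littermates of a separate cross. Sexes were mixed in the study and are not given per library. Depth was 13939559 to 30388941 reads in the C3aR+ libraries and 42239056 to 76608464 in the others.

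Several libraries stood apart before any comparison was made. APP-KI replicate 5 had reads on 21219 genes, while APP-KI replicate 4 (13250), C3aR-KO replicates 1 (12702) and 2 (13055) and double mutant replicate 1 (12387) had reads on fewer genes than the other 15 libraries (14888 to 17450). All 5 of these libraries belong to the same one of the 2 series of library numbers that the 14 libraries fall into. The 6 C3aR+ libraries form a series of their own and come from the reporter cross. Sort, series, reporter allele and cross therefore cannot be told apart. The labels do not say what the series are.

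The level of C3ar1 itself went against 1 label. Its scaled values, reads divided by the upper quartile of the library and put on a common scale, were 71.0, 81.2 and 37.6 in the WT C3aR+ libraries and 383, 251 and 201 in the APP-KI C3aR+ libraries. In whole-gate libraries they were 276, 330 and 340 in WT and 165, 315 and 388 in APP-KI. Values in C3aR-KO mice were 68.1, 39.9 and 65.7, and in double mutants they ran from 61.9 to 80.4 with a median of 75.9. The cells labelled C3aR-positive from WT mice thus held as little C3ar1 RNA as cells of knockout mice, and all 3 lay below every whole-gate WT library.

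Markers of microglia were abundant in every library. All 8 markers fixed for the cell type were found, and their summed scaled values ran from 8429 in double mutant replicate 1 to 28392 in WT replicate 5, with Csf1r as the most abundant gene in 19 libraries. In the C3aR+ libraries the sums were 23766, 24421 and 22568 in WT and 16424, 16049 and 17436 in APP-KI, and 4 of the 8 markers were lower at an adjusted p under 0.05 (limma), with a median log2 fold change of -0.61. The median was -0.66 in the whole gate (1 of 8 lower) and -0.40 between double mutants and C3aR-KO. For these and the marker counts below, 9.70% of all genes were lower in C3aR+ cells and 13.0% higher. In the whole gate 1.93% were lower and 2.22% higher, and between double mutants and C3aR-KO 2.97% and 3.96%. Among the other sorted cells a gate could hold, the 6 neuronal markers summed to at most 19.8, in APP-KI replicate 5, and the 5 of T and NK cells to at most 24.1, in the same library. The 5 markers of red cells summed to between 0.501 and 21.9. Defining genes at 0 included all 5 T and NK cell markers in APP-KI C3aR+ replicate 1 and double mutant replicate 1, and Mog of oligodendrocytes in APP-KI replicate 4, C3aR-KO replicates 1 and 2 and double mutant replicate 1.

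Some of these markers differed with the APP knock-in. The 5 border macrophage markers summed to 550, 487 and 363 in WT C3aR+ and to 293, 134 and 130 in APP-KI C3aR+ libraries, with Mrc1 as the most abundant gene, and 4 of the 5 were lower (limma, adjusted p under 0.05). In the whole gate they summed to 345, 939 and 773 in WT and 219, 194 and 204 in APP-KI (median log2 fold change -1.33, 1 of 5 lower), and between double mutants and C3aR-KO their median was -0.93 (1 of 5 lower). The 5 endothelial markers summed to 114, 60.4 and 68.4 in WT C3aR+ and to 194, 222 and 352 in APP-KI C3aR+ libraries. Flt1, named after its values were seen, made up most of the latter sums (155, 182 and 314). The median log2 fold change of the 5 was -1.03, with Flt1 the only one higher and 1 lower (limma), so the larger sums were those of Flt1 and not of the list. In the whole gate 1 of 5 was higher (median -0.12), as was 1 of 5 in double mutants against C3aR-KO (median 0.10). Monocyte and neutrophil markers, 6 genes led by Ngp, Ccr2 or S100a9, summed to at most 705, in WT replicate 6. Astrocyte markers (6 genes, Slc1a3 the highest) summed to between 209 and 400, with 1 higher and 1 lower in C3aR+ cells (median -0.18). Oligodendrocyte markers (6 genes) summed to between 107 and 228. Mbp was the highest of them except in WT C3aR+ replicate 3 and C3aR-KO replicate 1, where Cnp was. Of 5 oligodendrocyte markers tested 1 was higher in C3aR+ cells (median 0.58) and 1 in double mutants against C3aR-KO (median -0.33), and Mbp read 50.5, 76.1 and 46.6 in WT C3aR+ and 121, 105 and 135 in APP-KI C3aR+ libraries. What part these cells had in the results on ribosomal protein genes was not tested. In RNA from a whole population, fewer cells of a type and less RNA per cell cannot be told apart.

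Ribosomal proteins are made in matched amounts and assembled with ribosomal RNA in the nucleolus before the subunits leave the nucleus. Most of their mRNAs begin with a C and a run of pyrimidines, the 5′ terminal oligopyrimidine tract, through which mTORC1 and LARP1 control translation and mRNA stability. Microglia around amyloid plaques take on a state with high Apoe, Lpl and Cst7, and mRNAs for ribosomal proteins have been described as raised in it.

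The share of a library taken by the 83 members separated mice with the APP knock-in from mice without it. In WT C3aR+ libraries 0.395%, 0.434% and 0.428% of reads fell on members, and in APP-KI C3aR+ libraries 1.02%, 0.826% and 0.970%. Whole-gate WT libraries gave 0.422%, 0.500% and 0.537% and APP-KI libraries 0.662%, 0.887% and 0.939%. In C3aR-KO the shares were 0.440%, 0.412% and 0.395%, and in double mutants 0.547%, 0.734%, 0.883%, 1.08% and 0.961%. By this share every library with the APP knock-in lay above every library without it, and the nearest pair was double mutant replicate 1 and WT replicate 6. By the mean log2 value of members, double mutant replicate 1 (4.47) lay below C3aR-KO replicate 3 (4.50) and all WT whole-gate libraries (4.54, 4.66 and 4.73). Group means were 0.419 ± 0.0214% in WT C3aR+, 0.937 ± 0.0995% in APP-KI C3aR+, 0.486 ± 0.0590% in WT, 0.830 ± 0.147% in APP-KI and 0.416 ± 0.0229% in C3aR-KO (SD over 3 libraries), with 0.841 ± 0.207% over the 5 double mutants. Wilson 95% intervals of single libraries were 0.00304 to 0.0103 percentage points wide and cover counting error only.

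**Figure D1:**
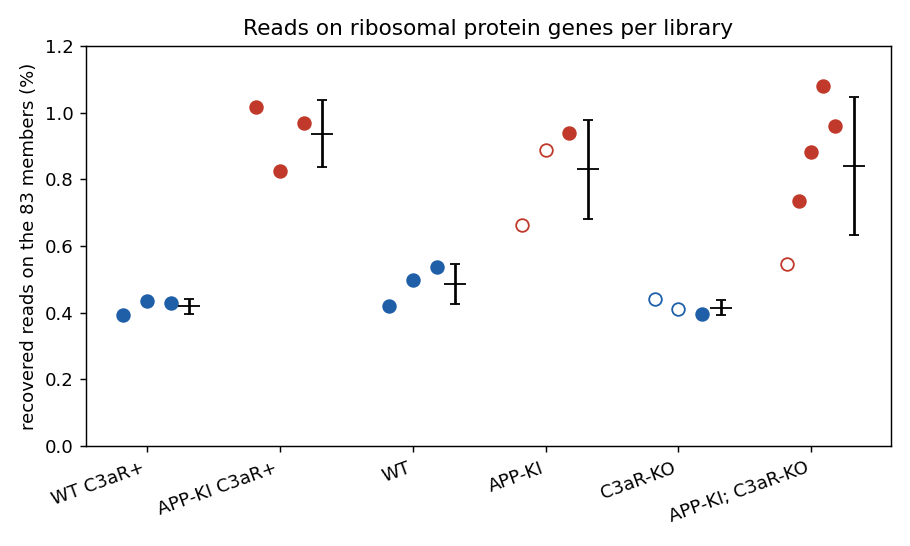
Percent of recovered reads that fell on the 83 ribosomal protein genes, 1 point per library, by condition, with blue for mice without and red for mice with the APP knock-in. Bars give mean and SD, and open points are the 5 libraries with reads on fewer than 15000 or more than 20000 genes among the 14 whole-gate libraries. Libraries with the APP knock-in sit between 0.547% and 1.08%, those without it between 0.395% and 0.537%.

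Levels differed widely between members. Per kilobase of the median protein-coding transcript, the highest mean scaled value over 20 libraries was that of the stalk protein gene Rplp1 (987 per kb). It was followed by Rps9 (480 per kb), whose protein lies by the mRNA entry channel, Rpl8 (464 per kb) and Rpl4 (399 per kb), with proteins close to the peptidyl transferase center and in the wall of the exit tunnel, and Rps3 (398 per kb), at the mRNA entry. At the other end were the paralogs known from striated muscle or testis, Rpl3l (0.373 per kb), Rpl39l (0.346 per kb) and Rpl10l (0.0527 per kb). Rpl10l had reads in 3 libraries, 50 of them in APP-KI replicate 5 and 1 each in double mutant replicates 2 and 3. These 3 paralogs and Rpl24 (1.33 per kb) had means under 1 over the libraries of a fit and were not tested, which left 79 of the 83 members in each comparison below.

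C3aR-sorted microglia of APP-KI mice held more mRNA for most ribosomal proteins than those of WT mice. Of the 79 members tested, 54 were higher at an adjusted p under 0.05 (limma, Benjamini-Hochberg over 12315 genes), where 13.0% of all genes tested were. The median log2 fold change of the members was 1.19, with a range from -0.86 to 2.46, beside a median of -0.17 over all genes. By limma, 0 members were lower, where 9.70% of all genes were. Unadjusted p-values under 0.05 were reached upward by 61 members and downward by 1 (2201 and 2428 of all genes), and by edgeR 56 were higher and 0 lower (1770 and 659 of all genes). The median of all genes depended on the scaling between libraries (-0.17 with the authors' scaling, -0.03 with median ratios and -0.25 with library totals), and the members' median was 1.33 with median ratios and 1.11 with library totals, so changes are to be read relative to that shift. In 61 of 79 members the lowest APP-KI library exceeded the highest WT library, which held for 17.8% of all genes tested.

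The large subunit gave 27 of its 42 tested members, with a median log2 fold change of 1.18. Rpl26, whose protein sits at the mouth of the exit tunnel, had scaled values of 26.6, 26.0 and 25.3 in WT and 277, 38.9 and 291 in APP-KI. All 3 APP-KI libraries were above WT, but replicate 2 by far less than the others, and the log2 fold change of 2.46 (SE 0.62) had an adjusted p of 0.019 by limma. The limma call was lost when any library but APP-KI C3aR+ replicate 2 was left out, with log2 fold changes of 1.97 to 2.47, and when no filter was used (2.46). Rpl36 read 7.78, 8.89 and 10.2 in WT and 64.9, 25.2 and 40.9 in APP-KI, groups that did not overlap. Its log2 fold change was 2.07 (SE 0.34, limma adjusted p = 0.0023, higher in 3 of 3 libraries). Rpl41, the gene of the shortest ribosomal protein, read 66.0, 86.7 and 78.8 against 239, 189 and 324. It rose by 1.66 on the log2 scale (SE 0.19, limma adjusted p = 0.00037).

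Large subunit genes that rose differed in level. Over the 79 tested members, level per kilobase had a Pearson r of 0.23 and a Spearman rho of 0.40 with the log2 fold change. These values are across genes that share libraries, and are a description. Rpl4 went from 338, 387 and 364 to 784, 745 and 1123 (log2 fold change 1.26) and Rpl8 from 283, 292 and 285 to 603, 539 and 617 (1.03). Rpl3, at the peptidyl transferase center, and Rpl39, a tunnel protein, rose by 0.94 and 1.44. Below 0 on the log2 scale, without passing the test, lay Rpl10 (-0.70, limma adjusted p = 0.20), which is among the last proteins added to the subunit, and Rpl27 (-0.37, adjusted p = 0.71), the latter named after its values were seen. Rpl10 read 20.3, 12.9 and 16.0 in WT and 5.63, 10.6 and 14.2 in APP-KI, so that the groups overlapped. Only 14.6% of the 50-base words of the longest protein-coding Rpl10 transcript occur in no other gene, and it shares words with 15 genes. Rpl5, which forms a particle with 5S RNA and Rpl11, had a log2 fold change of 0.17 (SE 0.33), and 6.16% of its words are its own.

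Among small subunit genes, 24 of 31 were higher, with a median log2 fold change of 1.22. Rps28 read 13.1, 9.08 and 13.3 in WT and 55.7, 28.1 and 76.4 in APP-KI, and rose by 1.99 (SE 0.35, limma adjusted p = 0.0034). Rps21 went from 20.5, 22.7 and 21.4 to 105, 83.9 and 55.0 (1.82, SE 0.23, limma adjusted p = 0.00064). In both genes the lowest APP-KI library was more than the highest WT library, while the APP-KI libraries differed among themselves far more than the WT libraries did. Rps16, whose protein reaches the tRNA in the P site, read 5.11, 2.83 and 2.31 against 14.1, 15.5 and 12.3, a log2 fold change of 1.81 (SE 0.38, limma adjusted p = 0.0090). Rps20 read 47.8, 47.7 and 40.0 in WT and 134, 124 and 146 in APP-KI, without overlap (1.55, SE 0.14, limma adjusted p = 9.2e-05). Rpsa, the laminin receptor homolog of the small subunit, rose by 1.25 and X-linked Rps4x by 1.55 (SE 0.13 and 0.17).

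Both small subunit genes with a log2 fold change below 0 failed the test. Rps29 read 8.10, 8.89 and 4.88 in WT and 3.52, 2.99 and 3.93 in APP-KI (-0.86, SE 0.41, limma adjusted p = 0.15), and every APP-KI library was below every WT library. Rps27a, a fusion of ubiquitin with a ribosomal protein, read 14.1, 8.89 and 13.0 against 11.6, 10.5 and 3.85 (-0.53, SE 0.43, limma adjusted p = 0.40), with overlapping groups. Rps29 was named after its values were seen. Rps6, the substrate of the S6 kinases, rose by 1.31 (SE 0.35, limma adjusted p = 0.024) from 6.46, 10.4 and 5.87 to 19.7, 26.8 and 14.5.

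All 3 genes of the stalk, the flexible arm that recruits elongation factors to the large subunit, were higher. Rplp0, its base, read 85.8, 143 and 86.6 in WT and 399, 226 and 385 in APP-KI (log2 fold change 1.67, SE 0.25, limma adjusted p = 0.0016). Rplp1 read 292, 342 and 287 against 780, 649 and 603 (1.13, SE 0.13, limma adjusted p = 0.00041), and Rplp2 read 29.1, 28.7 and 30.3 against 96.4, 84.9 and 128 (1.76, SE 0.17, limma adjusted p = 0.00020). The groups did not overlap in any of the 3 genes.

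Paralogs of other members gave no call in C3aR+ cells with every library in the fit. Of the 3 tested, 0 passed limma's adjusted threshold and 0 passed by edgeR, while 1 upward and 1 downward difference had an unadjusted p under 0.05. Rpl22l1 read 18.8, 6.05 and 6.48 in WT and 7.03, 7.94 and 17.1 in APP-KI (0.10, SE 0.49, limma adjusted p = 0.90). Its partner Rpl22 read 119, 131 and 130 against 327, 274 and 273 and rose by 1.19 (SE 0.12, limma adjusted p = 0.00019). One high library in each group made up the spread of Rpl22l1, and its log2 fold change was below 0 without WT C3aR+ replicate 2 (-0.16), WT C3aR+ replicate 3 (-0.12) or APP-KI C3aR+ replicate 3 (-0.26). Rps27l, known as a target of p53, read 3.41, 2.10 and 4.09 against 5.63, 9.54 and 14.5 (1.32, SE 0.45, limma adjusted p = 0.061), without overlap, and passed when APP-KI C3aR+ replicate 1 was left out (1.64).

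Of the counterparts of these paralogs, Rpl22 and Rpl7 passed the threshold and Rps27 did not. Rps27, the partner of Rps27l, read 8.39, 5.57 and 3.45 in WT and 5.79, 6.90 and 5.11 in APP-KI (0.08, SE 0.42, limma adjusted p = 0.90), and was at -0.19 without WT C3aR+ replicate 3 and -0.01 without APP-KI C3aR+ replicate 2. A nearly identical gene without introns, Rps27rt, read 32.3, 39.3 and 40.2 against 125, 92.2 and 105 and rose (limma adjusted p = 0.00028, SE of the log2 fold change 0.16). Of the 50-base words of Rps27 36.9% were in no other gene and of Rps27rt 8.92%, so how reads were divided between the pair is uncertain. Rpl7l1, a relative of Rpl7 that acts in assembly of the large subunit, read 98.2, 103 and 105 against 91.1, 82.4 and 62.2 (-0.39, SE 0.15, limma adjusted p = 0.097), with every APP-KI library below every WT library. Rpl7 itself rose by 1.17, from 144, 161 and 160 to 341, 298 and 425 (SE 0.14, limma adjusted p = 0.00048).

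**Figure D2:**
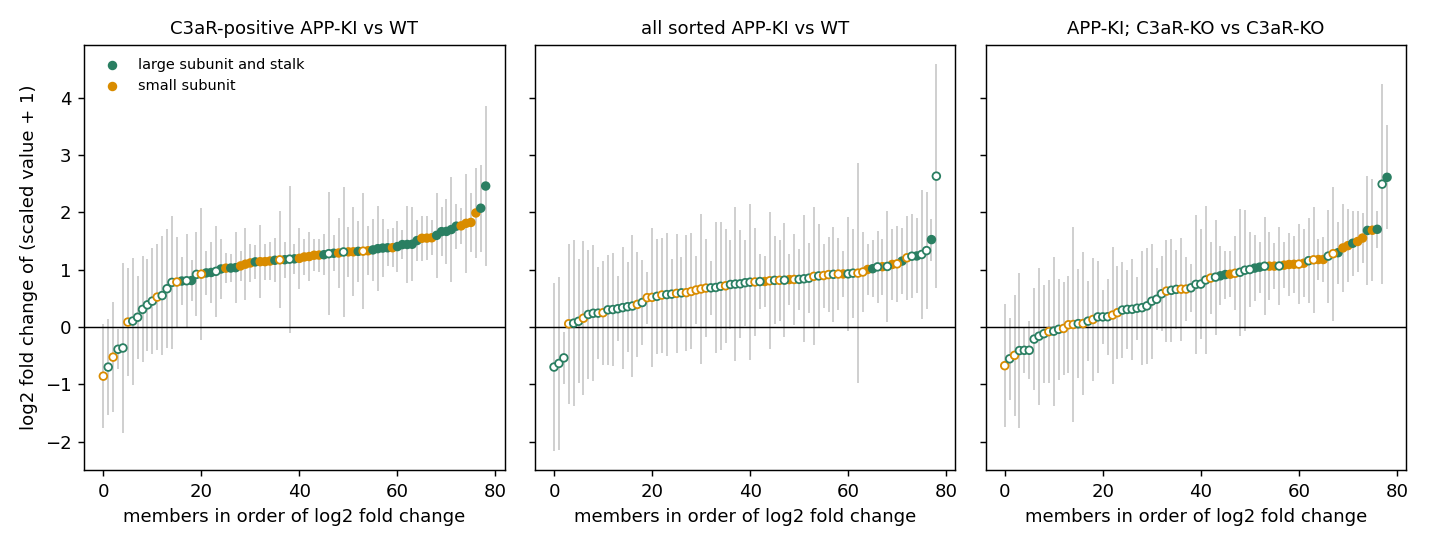
Log2 fold changes of the 79 tested members with 95% intervals in 3 comparisons of mice with and without the APP knock-in, each panel in its own order, with filled points for an adjusted p under 0.05 (limma). Green marks large subunit and stalk genes and orange small subunit genes. Filled points number 54, 10 and 23 from left to right, and all lie above 0.

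In the whole gate, microglia of APP-KI mice again held more ribosomal protein mRNA than those of WT mice, with fewer genes past the threshold. Of 79 members, 10 were higher at an adjusted p under 0.05 (limma over 12410 genes), where 2.22% of all genes were, and the median log2 fold change was 0.77 beside -0.01 over all genes. By limma 0 were lower, where 1.93% of all genes were, and 76 of the 79 values were above 0. Without adjustment 34 reached a p under 0.05 upward and 1 downward (738 and 805 of all genes), and by edgeR 10 were higher and 0 lower (225 and 184 of all genes). Among the limma calls were Rpl41, Rpl23, Rpl22, Rps19, Rps14, Rplp1, Rps24 and Rps3, and of the 10, 3 encode large subunit, 6 small subunit and 1 stalk proteins. Medians were 0.73 for the large subunit, 0.80 for the small subunit and 0.89 for the stalk.

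Rpl41 gave the clearest difference in this sort. It read 67.7, 89.7 and 87.7 in WT and 187, 221 and 241 in APP-KI, without overlap, and rose by 1.52 (SE 0.17, limma adjusted p = 8.35e-05). Rps14, of the small subunit platform, read 69.6, 74.8 and 88.4 against 157, 155 and 144 (1.05, SE 0.23, limma adjusted p = 0.015). Rps19, the gene most often mutated in Diamond-Blackfan anemia, read 33.1, 40.8 and 46.5 against 59.1, 81.9 and 90.1 (1.09, SE 0.29, limma adjusted p = 0.048). In Rps14 and Rps19 as well, each APP-KI library was above each WT library. Rpl22 (108, 129 and 133 against 385, 214 and 249) and Rpl23, at the face where the subunits join (30.9, 43.8 and 36.6 against 69.2, 83.2 and 109), rose by 1.15 and 1.24 (SE 0.27 and 0.31, higher in 3 of 3 libraries). Rps21 and Rps20 read only 13.2 and 43.5 in APP-KI replicate 4, below all WT libraries, while the other 2 APP-KI libraries were at 73.4 and 102 and at 109 and 142.

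This count leaned on single libraries. It was 1 without WT replicate 4, 3 without WT replicate 5, 4 without WT replicate 6, 6 without APP-KI replicate 5, 2 without APP-KI replicate 6 and 21 without double mutant replicate 1, which shares the fit (median 0.66). Over all genes, 275 were higher with every library, and in the same order 152, 181, 193, 234, 172 and 415 with 1 left out. Calls of Rpl22, Rpl23, Rps14 and Rps19 were lost by limma without WT replicate 4 (log2 fold changes 1.01, 1.11, 1.06 and 1.16), and that of Rpl41 was not lost without any library. Within the series of library numbers that holds the 5 libraries set apart by their gene number, 0 of 80 members were higher by limma (9 at an unadjusted p under 0.05, with edgeR not run within series) and the median was 0.61, with WT replicate 4 as the only WT library and 43 of 12725 genes higher. Within the other series 47 were higher, as were 1183 of 12066 genes, and the median was 0.77, with APP-KI replicate 6 as the only APP-KI library. Such fits assume that a lone library varies as the libraries of the other groups do.

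In the 9 whole-gate libraries with reads on 15000 to 20000 genes, an alternative chosen after seeing the data, 45 of 79 members were higher by limma, where 7.88% of all genes were, with a median log2 fold change of 0.70. APP-KI replicate 6 was the only APP-KI library left among the 9, so that these calls rest on it and on the spread within the other groups. One member, Rpl7l1, was lower in this fit (-0.42, SE 0.10, limma adjusted p = 0.030). It read 95.3, 95.9 and 91.4 in WT and 70.9 in that APP-KI library. In APP-KI replicates 4 and 5, which the fit left out, it read 67.1 and 67.8, and with all 14 libraries its log2 fold change was -0.54 (SE 0.21, limma adjusted p = 0.25).

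Across the 79 members, log2 fold changes in C3aR+ cells and in the whole gate, which come from separate libraries, had a Pearson r of 0.48 and a Spearman rho of 0.36. Genes are not independent replicates, and this is a description. Whether the knock-in effect differed between sorts was fitted in the 12 libraries of WT and APP-KI mice from both sorts. By limma 0 members passed, where 0% of all genes did, and by edgeR 0. The median difference was 0.40, larger in C3aR+ cells for 67 of 79 members, and without adjustment 22 members reached a p under 0.05 upward and 2 downward. Over all genes these counts were 836 and 644 of 12592. With single libraries left out the upward count of members ran from 11 (without WT replicate 6, 519 of all genes) to 31 (without APP-KI replicate 6, 1257 of all genes). Smallest in p were Rplp2 (1.23, SE 0.31), Rps28 (1.48, SE 0.43) and Rpl13a (1.16, SE 0.36), none of which passed (limma adjusted p = 0.39 for all 3). Without APP-KI replicates 4 and 5, whose gene numbers stood apart, the median difference was 0.34 and 5 members upward had an unadjusted p under 0.05 (367 of all genes), with replicate 6 as the only whole-gate APP-KI library.

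The same 3 genes had the smallest p where WT C3aR+ libraries were set against whole-gate WT libraries. Rplp2 read 29.1, 28.7 and 30.3 in the former and 46.9, 58.0 and 59.9 in the latter (-0.87, SE 0.22, limma adjusted p = 0.74). Its groups did not overlap, and neither did those of Rps28 or Rpl13a. Of 79 members, 0 passed by limma and 0 by edgeR, where 0% of all genes passed, and unadjusted p-values under 0.05 went to 9 members, all downward, and over all genes to 126 upward and 426 downward of 12592. Downward members numbered 5 without WT C3aR+ replicate 1 or WT replicate 6, and 20 without APP-KI replicate 4, where 827 of all genes did so and 12 genes, none of them members, passed as lower. In the 10 libraries without APP-KI replicates 4 and 5 the members numbered 19 (829 of all genes). The median was -0.26, and 13 values were above 0. In APP-KI mice the median between sorts was 0.20, and 0 members passed by limma or edgeR, where 0% of all genes passed (unadjusted p under 0.05 for 2 upward and 1 downward, and over all genes for 200 and 457). Upward members numbered 22 without APP-KI replicate 6 (median 0.29, 827 of all genes) and 6 without APP-KI C3aR+ replicate 2 or APP-KI replicate 5. Rpl13 (0.79), Rpl37 (0.63) and Rps27a (-0.85) had the smallest p there (limma adjusted p = 0.82 each), and without APP-KI replicates 4 and 5, which left replicate 6 alone in the whole gate, the median was 0.00 and no member upward had an unadjusted p under 0.05 (97 of all genes). Sort, library series, reporter allele and cross cannot be told apart in either comparison or in the difference between sorts above, and depth differed too.

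In mice without C3ar1, too, most ribosomal protein mRNAs were more abundant with the APP knock-in. In double mutants against C3aR-KO mice, 23 of 79 members were higher (limma, adjusted p under 0.05), where 3.96% of all genes were, and the median log2 fold change was 0.74 beside -0.03 over all genes. Of the 79 values 66 were above 0, with a range from -0.68 (Rps6) to 2.61 (Rpl36). Lower members numbered 0 by limma, where 2.97% of all genes were lower, and edgeR gave 19 higher and 0 lower (387 and 268 of all genes). Unadjusted p-values under 0.05 went to 36 members upward and 1 downward, and over all genes to 1255 and 1280. Small subunit genes supplied 14 of 31 (median 1.06), the large subunit 8 of 42 (median 0.61) and the stalk 1 of 3 (Rplp1, 1.04). The difference between subunits was not tested.

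Named members of this comparison differed in how even their C3aR-KO libraries were. Rpl36 read 2.93, 0.818 and 16.9 in C3aR-KO and 33.5, 24.7, 39.9, 44.4 and 37.7 in double mutants (2.61, SE 0.42, limma adjusted p = 0.0014). C3aR-KO replicates 1 and 2, among the libraries with few genes detected, gave the lowest Rpl36 values of all 20. Rpl41 read 65.9, 55.6 and 66.2 against 153, 194, 228, 313 and 244 (1.70, SE 0.15, limma adjusted p = 5.95e-06), and Rps14 35.0, 64.0 and 64.8 against 169, 117, 151, 213 and 182 (1.55, SE 0.20, limma adjusted p = 0.00021). In all 3 genes every double mutant library was above every C3aR-KO library. Rps21 read 12.1, 13.1 and 26.6 against 28.4, 51.2, 89.0, 125 and 85.8 (1.69, SE 0.41, limma adjusted p = 0.023). Rpl13a, which also acts in a complex that silences inflammatory mRNAs, read 0.899, 6.40 and 11.9 against 18.2, 16.6, 17.8, 21.5 and 18.8 (1.68, SE 0.45, limma adjusted p = 0.035).

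Here too the number of calls moved with single libraries. It was 12 without C3aR-KO replicate 3 (476 of all genes) and 39 without double mutant replicate 1 (759 of all genes, beside 491 with every library), which had the fewest genes detected and 0.588 for Rps28 where the other double mutants had 42.9 to 58.4. Without double mutant replicate 1, Rpl7l1 was lower (-0.56, SE 0.17, limma adjusted p = 0.045). The call of Rps21 was lost without C3aR-KO replicate 1, 2 or 3 or double mutant replicate 2 or 4 (log2 fold changes 1.58 to 1.73), and that of Rpl13a without double mutant replicate 2, 3, 4 or 5, WT replicate 4, 5 or 6 or APP-KI replicate 6 (1.65 to 1.73). In the 9 libraries of intermediate gene number 55 of 79 members were higher, where 14.3% of all genes were, with a median of 1.07. Within the series with the 5 libraries set apart 1 was higher (median 0.37, 72 of 12725 genes higher), and within the other series 56 were (median 1.08, 2021 of 12066 genes higher). C3aR-KO replicate 3 was the only C3aR-KO library behind the counts of 55 and 56.

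Loss of C3ar1 in mice with the APP knock-in gave no member past the threshold. Double mutants against APP-KI mice had 0 of 79 members past an adjusted p under 0.05 by limma and 0 by edgeR, where 0.00806% of all genes passed (C3ar1 itself, 1 of 12410), and 0 at an unadjusted p under 0.05 (over all genes 38 upward and 109 downward). The median log2 fold change was -0.13, with a range from -0.97 to 1.09, and within the series with the libraries set apart it was -0.33. Without those libraries it was 0.01 (9 libraries) and within the other series 0.03, both with APP-KI replicate 6 as the only APP-KI library. For Rpl41 the difference was -0.07 with a 95% interval from -0.39 to 0.26, for Rplp1 0.04 (-0.41 to 0.48) and for Rps3 0.05 (-0.31 to 0.40). In the whole gate these genes rose with the knock-in by 1.52, 1.02 and 0.92. They were among the 10 members called there, and both differences rest on the same APP-KI libraries, so they are not independent. Whether C3ar1 loss reverses part of the rise was not tested by setting them side by side. Intervals of most other members were wider. Smallest in p were Rpl22l1 (-0.86, SE 0.41), Rps27a (-0.97, SE 0.50) and Rpl7l1 (0.36, SE 0.19), with a limma adjusted p of 0.998 each.

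In mice without the APP knock-in, C3aR-KO mice were compared with WT mice and 0 of 79 members passed by limma or edgeR, where 0.00806% of all genes passed, again C3ar1. Without adjustment 1 reached a p under 0.05 upward and 3 downward (123 and 221 of all genes), and the median was -0.09. With single libraries left out, 1 (without WT replicate 4, 62 of all genes) to 9 (without C3aR-KO replicate 1, 450) did so downward. In fits with C3aR-KO replicate 3 as the only C3aR-KO library, 29 (9 libraries) and 28 (the other series) did so downward and 2 upward in each (726 and 928 of all genes downward, 1324 and 1378 upward), with a median of -0.25 and 0 members past the adjusted threshold (limma, edgeR not run). Rpl36 read 13.4, 18.9 and 23.1 in WT and 2.93, 0.818 and 16.9 in C3aR-KO (-1.61, SE 0.48, limma adjusted p = 0.99), with 1 C3aR-KO library among the WT values, and without that library, replicate 3, it passed (-2.54, limma adjusted p = 0.017). Rpl13a (-1.18, SE 0.50) and Rpl5 (0.62, SE 0.26) did not pass. The interaction, in which the effect of C3ar1 loss in APP-KI mice is set against that in WT mice, gave 0 members by limma and by edgeR, where 0% of all genes passed, and a median of 0.01. Rps20 alone of the members had an unadjusted p under 0.05 (0.85, SE 0.38; over all genes 111 upward and 92 downward), followed by Rps6 (-1.56, SE 0.77) and Rpl5 (-0.72, SE 0.36). In the 9 libraries of intermediate gene number the interaction had a median of 0.27, with 1 APP-KI library (replicate 6) and 1 C3aR-KO library (replicate 3) in the fit, and 17 members upward and 1 downward had an unadjusted p under 0.05 (481 and 884 of all genes). Within the other series, with the same lone libraries, these were 22 and 2 (718 and 1051 of all genes). The median was 0.24 without the library series term and -0.10 within the series with the libraries set apart.

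Ribosomal proteins that the rule on symbols leaves out were also higher in C3aR+ cells. For this and the lists that follow, 13.0% of all genes were higher and 9.70% lower in that comparison. In the whole gate 2.22% of all genes were higher and 1.93% lower, and in double mutants against C3aR-KO 3.96% and 2.97%. Of 6 ribosomal proteins on the list 5 were found and 4 tested, and 3 were higher in C3aR+ cells (limma, median 1.43). Rack1, a scaffold on the head of the small subunit, read 170, 194 and 198 in WT and 484, 431 and 528 in APP-KI (1.36, SE 0.12, limma adjusted p = 9.8e-05). Rps27rt rose as given above, while Fau was at 0.68 (SE 0.36, limma adjusted p = 0.20). Of the same genes 0 of 4 passed in the whole gate by limma (1 at an unadjusted p under 0.05, with edgeR not counted for this list, median 0.67), and against C3aR-KO 1 of 4, Rack1, was higher in double mutants (1.11, SE 0.26).

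Elongation factors and further genes whose mRNAs are known to carry the pyrimidine tract rose in C3aR+ cells as well, with 14 of 18 higher and a median of 1.03. Eef1a1, which brings aminoacyl-tRNA to the ribosome, read 1051, 1108 and 1033 in WT and 2844, 2563 and 3493 in APP-KI (1.47, SE 0.16, limma adjusted p = 0.00026). Eef1b2, its exchange factor, rose by 1.23 and the nucleolar chaperone Npm1 by 1.06 (SE 0.11 and 0.12). Eif3f, a subunit of initiation factor eIF3, rose as well (SE 0.19, limma adjusted p = 0.00073). The median of the list was 0.64 in the whole gate, with 3 of 18 higher, and 0.58 in double mutants against C3aR-KO, with 7 of 18 higher.

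Initiation factors outside that list, the machinery of ribosome biogenesis and mTORC1 with its regulators had medians near that of all genes in C3aR+ cells (-0.03, 0.00 and -0.14, beside -0.17). Their shares of higher genes are to be read beside 13.0% of all genes tested. Of 30 initiation factors 5 were higher, among them Eif3a (0.88), Eif5a (0.73), Eif3i (0.76) and Eif3m (1.00). Of 47 biogenesis genes 5 were higher, a share below that of all genes, including the nucleolar proteins Ncl (0.85), Gnl3 (0.83), Rrp1 (0.56) and Mybbp1a (0.56). Ncl read 440, 384 and 380 in WT and 683, 726 and 755 in APP-KI (SE 0.11, limma adjusted p = 0.00084). On the mTORC1 list 2 of 21 were higher, again below that share, Ybx1 (0.57) and Larp1, the protein that binds the pyrimidine tract (0.51, SE 0.13, limma adjusted p = 0.021). Rps6kb1, an S6 kinase, and Deptor, an inhibitor of mTOR, were at -0.44 and -0.72 and did not pass (limma adjusted p = 0.065 and 0.079).

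Of 19 quality control and stress response genes 3 were higher and 3 lower (median -0.11), beside 13.0% and 9.70% of all genes, and the list was not tested as a set. Cdkn1a, the cell cycle inhibitor induced by p53, rose in 3 of 3 libraries, to 47.6, 36.2 and 43.6 in APP-KI (1.74, SE 0.30, limma adjusted p = 0.0030), and Eif2ak2 and Trib3 rose by 0.75 and 1.78. Lower were Eif2ak4 (-0.66), the kinase that senses uncharged tRNA, and Zfp598 (-0.50), which marks collided ribosomes. Among 14 genes for targeting of nascent chains 2 were higher, close to the share of all genes, namely Ssr4 (1.09) and Sec61b (1.17). Immediate early genes, which rise on dissociation of tissue, had 2 higher and 3 lower of 13: Atf3 went from 213, 113 and 140 to 597, 472 and 571 (1.85, SE 0.21) and Jun from 1706, 1271 and 1104 to 807, 695 and 691 (-0.87, SE 0.17), while Nr4a1 was at 1.07 and Hspa1b at -1.11. Their part in the results on members was not tested.

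Genes that mark reactive microglia were measured in the same libraries. All 9 found of 10 were higher in C3aR+ cells (limma, median 4.76), 7 of 9 in the whole gate (5.17) and 9 of 9 in double mutants against C3aR-KO (5.21). Lpl, a lipase of the plaque-associated state, read 35.6, 28.9 and 18.8 in WT C3aR+ and 830, 862 and 1105 in APP-KI C3aR+ libraries (5.05, SE 0.21, limma adjusted p = 4.0e-06). In the whole gate it read 14.3, 19.5 and 26.7 in WT and 408, 765 and 1043 in APP-KI. The lowest of these was replicate 4, which also had the lowest share of reads on members among the APP-KI libraries. Replicate 4 was among the libraries set apart by gene number (13250), and a link between Lpl and members was not tested.

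Genes for the ribosome of mitochondria gave few calls. Of 77 tested genes for mitochondrial ribosomal proteins 1 was higher in C3aR+ cells, Mrpl54 (1.56, SE 0.35, limma adjusted p = 0.012), with a median of -0.15, and medians were 0.05 in the whole gate (0 of 77 by limma and 0 at an unadjusted p under 0.05, with edgeR not counted) and 0.08 in double mutants against C3aR-KO (1 of 77). Whether they differed from the members was not tested as a set. Nuclear genes of oxidative phosphorylation had 31 of 76 higher and a median of 0.69 in C3aR+ cells, for example Cox4i1 (71.0, 67.4 and 68.5 against 176, 146 and 196, log2 fold change 1.30) and Cox6a1 (1.74). In the whole gate the median of that list was 0.31, with 2 of 76 higher (2.63%), close to the 2.22% of all genes. In double mutants against C3aR-KO it was 0.41, with 10 of 76 higher, beside 3.96% of all genes. Proteasome subunits had 4 of 38 higher and 1 lower (median -0.01), both shares below those of all genes, with Psmb8 of the immunoproteasome at 1.19. No gene encoded in mitochondria was among the symbols listed.

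Annotated starts of member genes were read from RefSeq (GRCm38.p6), because mRNAs of these proteins are known for the tract at their first base. Promoter entries were matched by symbol for 63 of 83 members, with 75 starts. A C at the annotated start with at least 4 pyrimidines (C or T) after it, read on the transcribed strand, stood at 13 of 75 starts (17.3%) and at 2.51% of all 32851 starts in the table. A tract of the same kind that began anywhere from 5 bases before to 12 bases after the start was found at 37 of 75 (49.3%) and at 25.4% of all starts. Annotated starts can lie a few bases from those used in microglia, which were not measured. Windows of 30 bases around the start are given for 5 members that rose in C3aR+ cells and have the tract and for 2 that rose and lack it at this base, with the tract in capitals.
Rpl15, chr14:18270967-18270996, minus strand: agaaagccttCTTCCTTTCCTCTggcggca
Rpl35, chr2:39005112-39005141, minus strand: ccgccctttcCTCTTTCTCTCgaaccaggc
Rplp2, chr7:141447641-141447670, plus strand: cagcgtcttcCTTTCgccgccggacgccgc
Rps6, chr4:86857348-86857377, minus strand: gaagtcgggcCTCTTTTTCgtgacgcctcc
Rps18, chr17:33955646-33955675, minus strand: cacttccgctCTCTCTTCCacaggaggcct
Rpl41, chr10:128549149-128549178, minus strand: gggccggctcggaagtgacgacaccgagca
Rps3, chr7:99483690-99483719, minus strand: aagggtcgccgcgctgcgcggcgtcattgc

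Members with and without a tract at an annotated start both included genes that rose. In C3aR+ cells 9 of 13 with it were higher (median log2 fold change 1.14), as were 31 of 46 tested without it (1.24). In the whole gate 0 of 13 with it passed by limma (5 at an unadjusted p under 0.05, with edgeR not counted for this split, median 0.77) and 6 of 46 without it (0.74). In double mutants against C3aR-KO the numbers were 1 of 13 (median 0.45) and 13 of 46 (0.78). Of all genes tested, 13.0%, 2.22% and 3.96% were higher in these comparisons, in the order given. No test was made of the differences between members with and without the tract.

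Many members have processed copies elsewhere in the genome, and short reads cannot always be placed. Words of 50 bases were taken from the longest protein-coding transcript of each member. In 37 of 83 members less than 50% of these words occurred in no other annotated gene, and in 46 at least 50% did. That transcript can be far longer than the median one, as for Rps15a (5179 against 638.5 bases) and Rpl9 (2690 against 738). Its words may then not stand for the mRNAs that were sequenced. Rps3, with 97.0% of words of its own, rose by 1.14 in C3aR+ cells, while Rpl35 and Rps18, chosen here for their words, with 4.91% and 13.3%, rose by 1.44 and 1.14. By limma 22 of 36 tested members of the first kind were higher in C3aR+ cells (median 1.14) and 32 of 43 of the second (1.31). In the whole gate these counts were 2 of 36 (0.75) and 8 of 43 (0.79), and in double mutants against C3aR-KO 10 of 36 (0.51) and 13 of 43 (0.89). Of all genes tested, 13.0% were higher in C3aR+ cells, 2.22% in the whole gate and 3.96% in double mutants against C3aR-KO. Over 79 members the share of unique words had r = 0.30 (rho 0.35) with level per kilobase and r = 0.10 (rho 0.14) with the log2 fold change in C3aR+ cells, values across genes that share reads and libraries. How multiply placed reads were treated in the counts is not stated, so levels of members with few unique words, such as Rpl24 (18.3%), are uncertain.

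**Figure D3:**
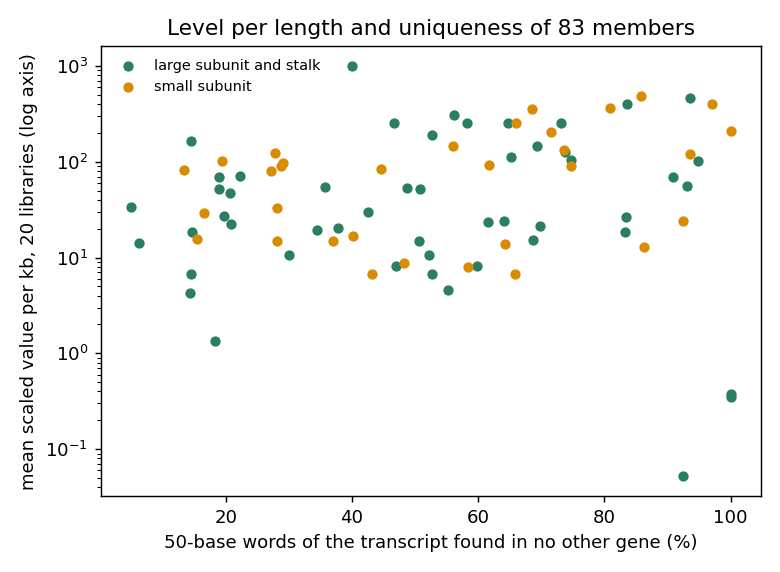
Mean scaled value per kilobase over 20 libraries (log axis) against the percent of 50-base words found in no other gene, 1 point per member (83). Words are from the longest protein-coding transcript, and levels are per kilobase of the median one. Large subunit and stalk genes are green and small subunit genes orange. The highest point is Rplp1 at 987 per kb and 40.0%, and the lowest is Rpl10l at 0.0527 per kb and 92.4%.

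Among 12377 genes, those with the pattern over 20 libraries most like Rpl22l1 were Ube2e2 (Pearson r of log2 values 0.84), the member Rps27 (0.79) and Ptp4a1 (0.79). For Rps27l they were Hacd2 (0.94), Anp32e (0.92) and Slc23a2 (0.92). These are descriptions over libraries of 6 conditions, with no test.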

How the data were processed

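The deposited values were the authors' normalized signal per gene, named FPKM but not divided by gene length: the labels name cutadapt, TopHat2, featureCounts and DESeq2 as the tools the authors used, with mm10, and do not say which of them made these values. Each library's values were multiples of 1 unit, and dividing by it recovered 100% whole reads, which edgeR used. The values share their 75th percentile across libraries and were multiplied by 35.2 to give the scaled values. Of 21326 entries, 21 share 10 symbols. Genes with a mean scaled value under 1 over a fit's libraries were left out, 1 was added before taking log2, and limma was run with a trend in variance and a library series term for the 14 whole-gate libraries, with Benjamini-Hochberg adjustment over all genes tested. By edgeR, 1770 genes were higher and 659 lower in the C3aR+ comparison. Code was tried on simulated data first. The design was written for normalized values.

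Members and lists were chosen with earlier results of these data known. Genes were named by rule: (a) stalk genes, Rpsa, Rps4x, and the paralogs with their partners, (b) in each comparison, of members past the threshold, up to 5 that rose most and up to 5 that fell most, or the 3 with the smallest p where fewer than 3 passed, (c) the 5 highest and 3 lowest members per kilobase, (d) for each other list up to 4 genes with the smallest p and those against its median, and for Rpl22l1 and Rps27l the 3 genes of most similar pattern. Rpl24, Rpl27, Rps24, Rps29, Rpl15, Rpl35, Rps18, C3ar1 and Flt1 were chosen after their values were seen. So were the fits within series, in 9 whole-gate libraries of 15000 to 20000 genes with reads, and between sorts without APP-KI replicates 4 and 5. Some named genes are not reported here. Tools were R 4.3.3, limma 3.58.1, edgeR 4.0.16, scipy 1.17.1, pandas 2.3.3, numpy 2.4.6 under Python 3.11.15.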

Additional observations from a re-analysis of the deposited data

Results flagged for a closer look

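In the 5 double mutant libraries, the gap between the farthest library and its nearest neighbor, divided by the group's range, was above Dixon's 95% critical value of 0.71 for 20 of 88 genes examined, with ratios from 0.717 to 0.960. The far library was double mutant replicate 1, which had the fewest genes with reads, in all but Sec61b (replicate 2), so the genes are not independent of one another. By chance about 1 in 20 independent groups passes. Among members the ratios were 0.820 for Rpl10, 0.842 for Rpl22l1, 0.814 for Rpl37, 0.789 for Rpl7l1, 0.797 for Rps27a, 0.732 for Rps28 and 0.789 for Rps6. Among other genes of translation they were 0.719 for Fau, 0.803 for Eif3a, 0.757 for Eif3m, 0.825 for Eif2ak4, 0.773 for Gnl3, 0.717 for Sec61b and 0.903 for Sec61g. For the remaining genes they were 0.744 for Atf3, 0.807 for Cdkn1a, 0.769 for Cox6a1, 0.777 for Cox8a and 0.764 for Mrps6.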

How the results depend on the processing

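In C3aR+ cells the members' median log2 fold change for APP-KI against WT was 1.33 with median ratio scaling and 1.36 by edgeR, and with single libraries left out 48 to 54 members were higher and 0 lower, with medians of 1.13 to 1.23. Rpl22l1 then ran from -0.26 (without APP-KI C3aR+ replicate 3) to 0.59, with -0.16 and -0.12 without WT C3aR+ replicates 2 and 3, and Rps27 from -0.19 (without WT C3aR+ replicate 3) to 0.35, with -0.01 without APP-KI C3aR+ replicate 2.

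In the whole gate, members higher in APP-KI than in WT numbered 5 without a filter, 6 without the library series term (median 0.58), 45 in 9 libraries of intermediate gene detection (1 lower), 0 within one series, 47 within the other (1 lower), and 1 to 21 with single libraries left out (medians 0.66 to 0.85). The fits giving 45 and 47 held 1 APP-KI library, replicate 6, and that giving 0 held 1 WT library, so they do not weigh like fits of 3. For C3aR-KO against WT the median was -0.25 without the series term, -0.25 in the 9 libraries and -0.25 within the other series, and with libraries left out it ran from -0.18 to 0.01, with 0 to 1 lower. Double mutants against C3aR-KO gave 55 higher (median 1.07) in the 9 libraries, 1 (0.37) within one series and 56 (1.08) within the other, with C3aR-KO replicate 3 alone behind 55 and 56, and 12 to 39 higher, 0 to 1 lower and medians of 0.51 to 0.94 with libraries left out. Double mutants against APP-KI had medians of -0.23 to 0.04 with libraries left out, -0.33 within one series, 0.03 within the other and 0.01 in the 9 libraries. The interaction's median was 0.27 in the 9 libraries and 0.27 within the other series, -0.10 within one series, 0.24 without the series term, and -0.17 to 0.23 with libraries left out. Between sorts in APP-KI mice it was 0.00 without APP-KI replicates 4 and 5.

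Deviations of libraries from their group means were correlated between WT and APP-KI libraries. In the whole gate same-numbered pairs had r of 0.25, 0.09 and 0.11, and other pairs -0.22 to 0.20. In C3aR+ libraries same-numbered pairs had r of -0.01 to 0.04, and other pairs -0.05 to 0.02. Between C3aR-KO and double mutants these were -0.04 to 0.24 and -0.23 to 0.16. Whether replicate numbers pair libraries was not tested. In the whole gate, fits with a replicate block held the 6 same-numbered libraries alone and no series term, so that the block is not the only change. In them 21 members were higher in APP-KI than in WT (median 0.58, 371 of 12847 genes). In double mutants 3 were higher than in C3aR-KO (121 of 12155 genes), with a median of 0.68 beside 0.74 in the main fit. In the 6 C3aR+ libraries 55 were higher with the block (median 1.19, 1387 of 12315 genes). Among named genes, 373 values outside the left-out libraries kept side and call and 23 lost a call. With libraries left out 439 kept both, 42 lost and 2 gained a call, and 5 changed sign. The cause was not tested.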
